A study of Mus musculus with 23 samples.

Results

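Neuronal activity-induced genes were followed in 23 RNA sequencing libraries of mouse hippocampus. The set holds 36 immediate early and later activity-induced genes, of 54232 genes listed in every library. The genes were chosen by name from textbook knowledge, with earlier results of these data known. All 36 had enough reads to be tested. They are 6 AP-1 factors, 4 EGR factors, 11 other induced nuclear factors, 7 feedback regulators, and 8 synaptic and secreted effectors. All mice were C57BL/6. At 9 months of age there were 4 wild-type libraries (WT), 4 from mice carrying the PS19 transgene, which encodes a mutant human tau of frontotemporal dementia behind the prion promoter (PS19), 4 from PS19 mice heterozygous for Lsd1 (PS19_Lsd1het), and 2 from Lsd1 heterozygotes without the transgene (Lsd1het). At 11 months, after a neuron-specific adeno-associated virus was placed in the hippocampus, there were 3 libraries of wild-type mice given an HA control virus (WT_HA), 3 of PS19 mice given that control virus (PS19_HA), and 3 of PS19 mice given a virus that expresses LSD1 (PS19_LSD1). LSD1, encoded by Kdm1a, is a histone demethylase, and the study's title asks about its loss by sequestration with tau. Nothing in the labels ties each library to an animal of its own, so p-values here reflect no more than how far these samples scatter, which may be technical scatter.

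Synaptic input opens NMDA receptors and voltage-gated calcium channels, and the calcium signal reaches CREB, SRF and MEF2 in the nucleus through kinases. These proteins switch on immediate early genes, many of them transcription factors such as Fos and Npas4, which in turn drive later genes whose products act at the synapse or are secreted. The transcripts are short-lived, so their level in hippocampus reflects what the animal was doing, how it was handled and how fast the tissue was frozen, besides its genotype. The labels state neither the time of day nor the behaviour before dissection. In bulk tissue fewer cells of a type and less RNA per cell cannot be told apart.

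Counted reads per library ranged from 15451494 to 24644977, and levels are given below in CPM, read counts scaled to a common library size, on 1 TMM-normalized scale over all 23 libraries. The targeted gene, Kdm1a, averaged 55.8 ± 4.84 CPM in WT and 43.1 ± 10.1 CPM in PS19_Lsd1het (SD, n = 4 each), where replicate 3 of those labelled heterozygous read 56.5 CPM, a WT value. It averaged 35.9 ± 0.749 CPM in Lsd1het (SD, n = 2), and with the viruses 61.8 ± 1.31 CPM in PS19_HA and 5163 ± 4927 CPM in PS19_LSD1 (both SD, n = 3). The mitochondrial share of counts was 33.9% for replicate 3 of WT, 16.1% for replicate 3 of PS19 and 16.2% for replicate 2 of WT_HA, and 2.86% to 6.04% for the rest. Libraries numbered 3 and 4 at 9 months differed from those numbered 1 and 2 across the transcriptome, so values are given for either set.

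The library labelled PS19_Lsd1het replicate 2 went against its labelled tissue. Summed over 8 cerebellum and hindbrain markers, chosen after their values were seen, it held 3495 CPM, against 23.6 to 202 CPM in the other 22 libraries. The 202 CPM was in WT replicate 2. Gabra6, a GABA receptor subunit of cerebellar granule cells, stood at 220.1 CPM in PS19_Lsd1het replicate 2. It read 10.7 CPM in WT replicate 2, so that WT library also carried some of this signal, and 1.38 CPM or less elsewhere. Neurod6, a factor of forebrain pyramidal neurons, read 20.7 CPM in PS19_Lsd1het replicate 2, and the lowest value elsewhere was 58.2 CPM. Of the 36 activity-induced genes, 28 were lower in that library than in all 7 other libraries of replicates 1 and 2, where 25.3% of all 20931 genes were; 2 were higher, where 24.8% of all genes were. Among the 28, Egr1 read 30.05 CPM against 131 to 225.5 CPM, Egr3 read 14.3 CPM against 102.5 to 162 CPM, and Arc read 33.6 CPM against 146 to 435 CPM. Those that were higher were Dusp5, a nuclear phosphatase of ERK, at 54.9 CPM against 17.25 to 28.7 CPM, and Ier3, an early response gene, at 6.94 CPM against 2.49 to 4.74 CPM. Where comparisons include the library, medians and fitted differences over all replicates are given with and without it. Intervals, counts at an unadjusted p, DESeq2 results and counts of members whose genotype groups did not overlap are given with it alone.

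**Figure D1:**
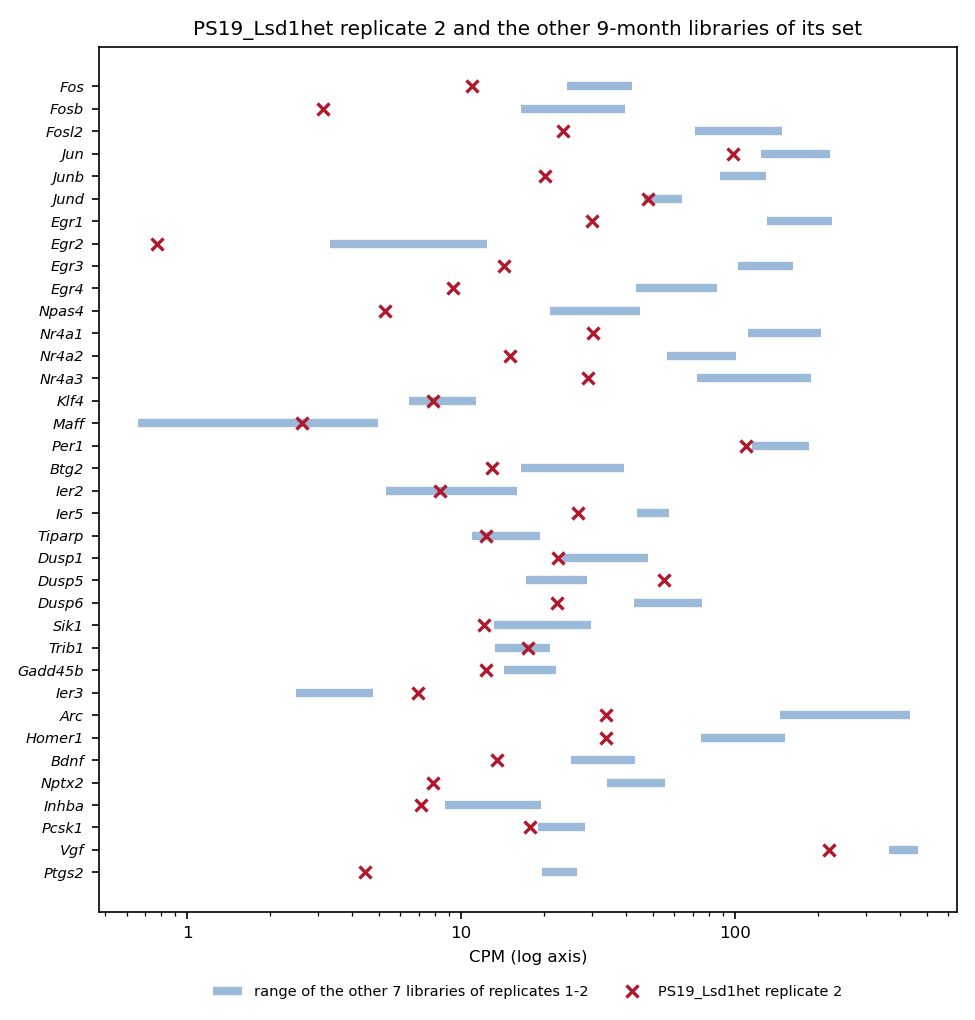
Level of each of the 36 activity-induced genes (rows) in CPM on a log axis; the cross is PS19_Lsd1het replicate 2 and the bar is the range of the other 7 libraries of replicates 1 and 2 at 9 months. Of the crosses, 28 lie left of their bar and those of Dusp5 and Ier3 lie right of it.

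Many members carry, near their start, the half-site of the cAMP response element, the sequence that CREB binds. RefSeq windows on GRCm38.p6, from 250 bases before to 50 after a start, were at hand for 28 of the 36 members; those of Vgf, Arc, Sik1, Egr3, Trib1, Nptx2, Ier2 and Egr1 were not used here. On either strand, the half-site TGACG occurred in windows of 19 of these 28 genes (67.9%), against 23.05% of 27025 genes. Its full palindrome TGACGTCA, each match of which also counts as half-sites, occurred in Btg2, Dusp1, Maff and Pcsk1, which is 14.3% against 2.03%. The CArG box, the site of SRF, occurred in Dusp5 and Egr2 (7.14% against 1.81%). An AP-1 site, TGANTCA, occurred in 1 of the 28 (3.57%), a window of Bdnf, against 8.97% of all genes. A gene was counted if any of its windows matched. Per window, the half-site occurred in 54.8% of 42 member windows and in 20.8% of all 32851 windows. The comparison genes were not matched to the members in GC content. A match is a description of letters, not evidence of a bound site.

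The 250 bases before the start, without annotated exon, are shown 5′ to 3′ on the strand of the gene for 5 members that carry half-sites and fall on either side of the split by replicate number described below, with half-sites, full palindromes and the TATAAA box in capitals. They are Fos (chr12:85473640-85473889, plus strand), Nr4a1 (chr15:101266596-101266845, plus strand), Junb (chr8:84978749-84978998, minus strand), Pcsk1 (chr13:75089607-75089825, plus strand) and Homer1 (chr13:93303507-93303756, plus strand). CGTCA is the half-site read on the other strand.
Fos: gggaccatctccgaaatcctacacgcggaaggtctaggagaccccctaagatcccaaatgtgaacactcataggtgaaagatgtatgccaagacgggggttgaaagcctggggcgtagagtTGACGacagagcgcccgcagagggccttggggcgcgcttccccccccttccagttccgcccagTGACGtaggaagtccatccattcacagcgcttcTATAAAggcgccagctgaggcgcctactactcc
Nr4a1: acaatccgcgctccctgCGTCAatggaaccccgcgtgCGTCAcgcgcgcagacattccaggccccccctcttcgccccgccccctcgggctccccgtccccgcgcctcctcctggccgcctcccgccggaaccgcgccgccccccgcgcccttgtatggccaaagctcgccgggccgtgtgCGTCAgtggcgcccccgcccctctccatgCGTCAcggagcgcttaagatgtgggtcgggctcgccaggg
Junb: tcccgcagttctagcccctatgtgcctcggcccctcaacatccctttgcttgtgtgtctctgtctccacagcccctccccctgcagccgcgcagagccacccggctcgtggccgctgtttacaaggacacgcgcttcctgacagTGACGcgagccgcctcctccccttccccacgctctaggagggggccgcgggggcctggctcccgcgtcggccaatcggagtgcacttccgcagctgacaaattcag
Pcsk1: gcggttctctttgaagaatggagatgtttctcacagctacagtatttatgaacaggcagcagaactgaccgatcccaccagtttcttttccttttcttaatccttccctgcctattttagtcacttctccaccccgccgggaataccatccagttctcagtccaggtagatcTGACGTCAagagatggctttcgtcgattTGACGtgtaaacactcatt
Homer1: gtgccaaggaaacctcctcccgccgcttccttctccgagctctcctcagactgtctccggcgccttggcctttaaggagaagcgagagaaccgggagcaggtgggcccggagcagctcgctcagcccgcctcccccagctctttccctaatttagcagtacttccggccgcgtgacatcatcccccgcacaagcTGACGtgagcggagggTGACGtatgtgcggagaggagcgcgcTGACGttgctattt
The half-sites of Fos begin 129 and 66 bases before its start and its TATAAA box 33 bases before it. Nr4a1 has 4, at 233, 213, 69 and 40 bases. Junb has 1, at 106 bases. Pcsk1 has the full palindrome 78 bases before the start and a further half-site at 50 bases, and its last 31 bases, which are exonic, are left out. Homer1 has half-sites at 56, 40 and 14 bases. Npas4, whose window is exonic in GENCODE and is not printed, has half-sites at 179 and 169 bases.

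Fos and Junb are subunits of AP-1, and Fos is the usual marker of recently active neurons. Fos stood at 25.2, 34.1, 4.01 and 20.7 CPM in WT replicates 1 to 4, at 26.4, 39.2, 15.9 and 22.1 in PS19 and at 28.85, 10.9, 29.5 and 10.6 in PS19_Lsd1het. Lsd1het libraries held Fos at 42.0 and 24.35 CPM. At 11 months Fos read 7.065, 5.74 and 10.2 CPM in WT_HA, 7.09, 6.14 and 15.8 in PS19_HA and 8.175, 7.75 and 8.335 in PS19_LSD1. Its lowest value was in WT replicate 3 and its highest in Lsd1het replicate 1, and the 4 groups at 9 months overlapped, as did the 3 at 11 months. Fos lies on chromosome 12, 85473890 to 85477273 (GRCm38, as for all positions here). Junb stood at 94.7, 111, 12.4 and 69.5 CPM in WT replicates 1 to 4, at 88.0, 129, 26.65 and 43.35 in PS19 and at 95.1, 20.2, 54.3 and 30.85 in PS19_Lsd1het. Lsd1het libraries held Junb at 129 and 109.5 CPM. At 11 months Junb read 36.4, 23.75 and 27.4 CPM in WT_HA, 33.3, 34.9 and 32.2 in PS19_HA and 34.6, 28.9 and 21.2 in PS19_LSD1. Within WT alone Junb spanned 12.4 to 111 CPM, and replicates 3 and 4 lay below replicates 1 and 2 in WT and PS19. Junb lies on chromosome 8, 84974484 to 84978718.

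The other AP-1 members were Fosb, Fosl2, Jun and Jund. Fosb, whose stable splice form accumulates with repeated activity, ranged from 1.66 CPM in WT replicate 3 to 39.7 in PS19 replicate 2. Fosl2 ranged from 23.55 to 148 CPM and Jun from 52.2 to 222 CPM. Jund, the AP-1 subunit with the steadiest expression, ran from 31.05 to 64.0 CPM, the smallest fold range of the 36, at 2.06-fold.

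Egr1 is a zinc finger factor long used as a map of synaptic activity in hippocampus. Egr1 stood at 143, 225, 96.5 and 168 CPM in WT replicates 1 to 4, at 141, 216, 195 and 83.2 in PS19 and at 131, 30.05, 169 and 71.3 in PS19_Lsd1het. Lsd1het libraries held Egr1 at 225.5 and 178 CPM. At 11 months Egr1 read 92.8, 172 and 113 CPM in WT_HA, 75.5, 88.8 and 182 in PS19_HA and 92.4, 72.4 and 74.5 in PS19_LSD1. PS19_Lsd1het replicate 2 was the lowest of all, and the groups at 9 months overlapped. At 11 months the 3 PS19_LSD1 libraries lay below the 3 of WT_HA, by as little as 92.4 against 92.8 CPM. Egr2, needed elsewhere for myelination by Schwann cells, stood at 0.489 to 12.4 CPM, Egr3 at 14.3 to 162 CPM, and Egr4 at 4.11 to 86.0 CPM.

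Npas4 is a neuron-specific factor that responds to calcium entry with little response to growth factors. Npas4 stood at 32.3, 24.1, 4.795 and 15.55 CPM in WT replicates 1 to 4, at 22.6, 31.8, 19.2 and 9.55 in PS19 and at 21.0, 5.28, 20.3 and 5.52 in PS19_Lsd1het. Lsd1het libraries held Npas4 at 45.1 and 24.1 CPM. At 11 months Npas4 read 8.85, 8.17 and 7.66 CPM in WT_HA, 14.7, 6.06 and 10.9 in PS19_HA and 4.41, 6.91 and 4.54 in PS19_LSD1. The 3 PS19_LSD1 libraries held the lowest value of all 23 and did not overlap WT_HA, while PS19_HA replicate 2 lay within their range. Npas4 lies on chromosome 19, 4984355 to 4990316.

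Nr4a1 is an orphan nuclear receptor. Nr4a1 stood at 132, 150.3, 15.3 and 77.9 CPM in WT replicates 1 to 4, at 112.5, 166, 49.0 and 44.3 in PS19 and at 111, 30.3, 87.8 and 31.5 in PS19_Lsd1het. Lsd1het libraries held Nr4a1 at 205 and 135 CPM. At 11 months Nr4a1 read 43.4, 36.6 and 36.7 CPM in WT_HA, 37.2, 35.8 and 53.8 in PS19_HA and 36.2, 32.2 and 25.45 in PS19_LSD1. WT replicate 3 was lowest and Lsd1het replicate 1 highest, and all 11-month libraries lay below every library of replicates 1 and 2 at 9 months other than PS19_Lsd1het replicate 2. Nr4a1 lies on chromosome 15, 101254269 to 101274795, and the RefSeq start used above is internal to that span.

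The other induced nuclear factors were Nr4a2 (15.0 to 101 CPM over the 23 libraries), Nr4a3 (29.05 to 189 CPM), Klf4 (3.61 to 11.3 CPM), Maff (0.573 to 4.97 CPM), the clock gene Per1 (38.9 to 186 CPM), the antiproliferative Btg2 (7.34 to 39.4 CPM), Ier2 (1.59 to 16 CPM), Ier5 (18.6 to 67.0 CPM) and the ADP-ribosyltransferase Tiparp (11.0 to 36.3 CPM). The feedback regulators were the MAP kinase phosphatases Dusp1 (7.63 to 47.9 CPM), Dusp5 (8.51 to 54.9 CPM) and Dusp6 (22.3 to 75.5 CPM), the kinase Sik1 (9.25 to 29.9 CPM), the pseudokinase Trib1 (9.12 to 21.25 CPM), Gadd45b (3.23 to 22.3 CPM) and Ier3 (2.31 to 7.83 CPM). The phosphatases dampen the kinase signal that induces the set.

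Arc encodes a capsid-like protein that promotes removal of AMPA receptors from the synapse. Arc stood at 188, 299, 17.7 and 164.5 CPM in WT replicates 1 to 4, at 146, 435, 88.7 and 86.2 in PS19 and at 178, 33.6, 188 and 39.2 in PS19_Lsd1het. Lsd1het libraries held Arc at 316 and 297 CPM. At 11 months Arc read 53.65, 37.2 and 38.6 CPM in WT_HA, 57.6, 52.7 and 46.2 in PS19_HA and 51.8, 70.35 and 32.5 in PS19_LSD1. Arc ran from 17.7 CPM in WT replicate 3 to 435 CPM in PS19 replicate 2, and the highest 11-month library stood at 70.35 CPM. Arc lies on chromosome 15, 74669083 to 74672570.

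Homer1 encodes a postsynaptic scaffold whose short form is the activity-induced one, and counts per gene do not separate the forms. Homer1 stood at 89.6, 152.5, 269 and 175 CPM in WT replicates 1 to 4, at 87.4, 141, 182 and 182 in PS19 and at 82.1, 33.85, 140 and 132.5 in PS19_Lsd1het. Lsd1het libraries held Homer1 at 74.8 and 151 CPM. At 11 months Homer1 read 181, 203 and 211 CPM in WT_HA, 145, 162 and 253.5 in PS19_HA and 194, 185 and 141 in PS19_LSD1. Homer1 was highest in WT replicate 3, where Fos, Junb, Nr4a1 and Arc were lowest. It lies on chromosome 13, 93299635 to 93405129.

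Bdnf encodes a neurotrophin. Bdnf stood at 32.6, 37.1, 71.2 and 46.2 CPM in WT replicates 1 to 4, at 25.2, 35.97, 62.4 and 45.2 in PS19 and at 37.2, 13.55, 36.6 and 32.5 in PS19_Lsd1het. Lsd1het libraries held Bdnf at 34.0 and 43.1 CPM. At 11 months Bdnf read 41.4, 69.3 and 33.5 CPM in WT_HA, 36.8, 45.2 and 31.3 in PS19_HA and 41.9, 37.3 and 29.5 in PS19_LSD1. Its highest value was again in WT replicate 3 and its lowest in PS19_Lsd1het replicate 2, and its groups overlapped in each cohort. Bdnf lies on chromosome 2, 109674700 to 109727007, and 7 RefSeq starts were at hand for it.

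Nptx2 encodes a secreted pentraxin that gathers AMPA receptors at excitatory synapses onto interneurons. Nptx2 stood at 34.0, 54.2, 15.8 and 17.5 CPM in WT replicates 1 to 4, at 45.8, 44.15, 14.15 and 22.05 in PS19 and at 39.35, 7.86, 22.8 and 15.1 in PS19_Lsd1het. Lsd1het libraries held Nptx2 at 37.5 and 55.3 CPM. At 11 months Nptx2 read 19.7, 17 and 20.5 CPM in WT_HA, 15.7, 14 and 27.05 in PS19_HA and 16.9, 17.5 and 15.15 in PS19_LSD1. Replicates 1 and 2 lay above replicates 3 and 4 in WT and PS19. Nptx2 lies on chromosome 5, 144545902 to 144557478.

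Vgf encodes a precursor of secreted peptides. Vgf stood at 433, 422, 39.2 and 145 CPM in WT replicates 1 to 4, at 370.5, 465, 76.7 and 146 in PS19 and at 428, 221, 143 and 94.0 in PS19_Lsd1het. Lsd1het libraries held Vgf at 446 and 365 CPM. At 11 months Vgf read 162, 106.5 and 166 CPM in WT_HA, 119, 119 and 151 in PS19_HA and 161, 131 and 135 in PS19_LSD1. Vgf in WT spanned 39.2 to 433 CPM, with both high values in replicates 1 and 2, and its 11-month libraries lay between 106.5 and 166 CPM. Vgf lies on chromosome 5, 137026392 to 137033351. Inhba, a subunit of activin, stood at 7.12 to 27.75 CPM, the prohormone convertase Pcsk1 at 17.8 to 66.6 CPM, and Ptgs2, which makes prostaglandins, at 4.47 to 41.2 CPM.

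**Figure D2:**
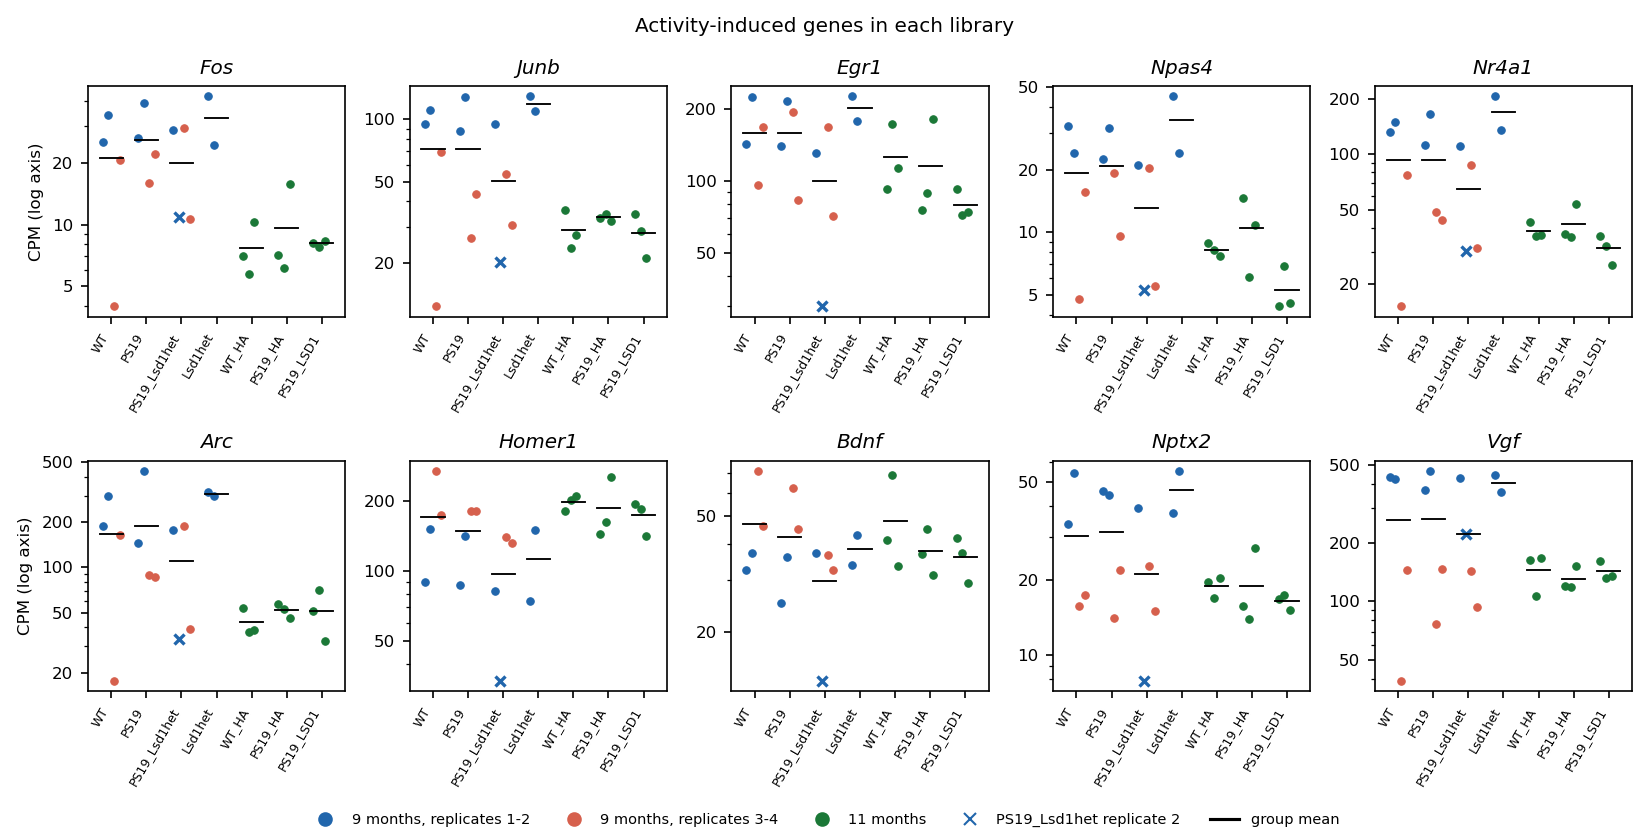
Level of 10 activity-induced genes in each library, in CPM on a log axis, by group; points are libraries coloured by replicate set or cohort, the cross is PS19_Lsd1het replicate 2 and the bar is the group mean. Vgf in WT falls from 433 and 422 CPM in replicates 1 and 2 to 39.2 and 145 CPM in replicates 3 and 4, while Homer1 has its highest value, 269 CPM, in replicate 3.

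Per kilobase of exon and averaged over the 23 libraries, Vgf had the highest level, at 73.8 ± 47.2 CPM per kb (SD, n = 23). Arc followed at 41.5 ± 37.45, Jun at 36.45 ± 13.9, Egr1 at 29.4 ± 12.6 and Jund at 26.0 ± 5.94 CPM per kb. Fos ranked the 18th at 7.58 ± 4.89, and Egr2 (1.29 ± 1.08) and Maff (0.693 ± 0.435) were the lowest. Neighbours in this order lay closer together than their SDs, except Egr2 and Maff at the end. The members were variable: the highest library exceeded the lowest by a median of 6.62-fold over the 36, against 3.30-fold over 16184 genes whose mean reached 1 CPM. Egr2 (25.4-fold), Arc (24.6-fold), Fosb (23.9-fold) and Egr4 (20.9-fold) varied most as a fold; the lowest Egr2 value, in WT replicate 3, rests on 5 reads. WT replicate 3 was the lowest library for 14 members and PS19_Lsd1het replicate 2 for 12, while PS19 replicate 2 was the highest for 11 and Lsd1het replicate 1 for 9.

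Within the 9-month cohort, members differed by replicate number. Transcription factors and effectors such as Egr4, Vgf, Fosb, Junb and Nr4a1 averaged lower in replicates 3 and 4, while Tiparp, Pcsk1 and Homer1 averaged higher. Over the 12 libraries of WT, PS19 and PS19_Lsd1het, 4 members lay lower in all of replicates 3 and 4 than in all of replicates 1 and 2, namely Vgf, Gadd45b, Per1 and Klf4, where 14.9% of all genes did. Tiparp and Pcsk1, 2 members, lay higher throughout, where 15% of all genes did. Without PS19_Lsd1het replicate 2, 13 members were lower throughout (17.9% of all genes) and the same 2 were higher (17.5%). Those 13 were the 4 above with Egr4, Fosb, Junb, Nr4a1, Nptx2, Npas4, Dusp1, Fosl2 and Jun. The split was noticed on these libraries, so no test was made of it.

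Vgf averaged 389.9 ± 88.3 CPM in replicates 1 and 2 and 107 ± 44.7 CPM in replicates 3 and 4 (SD, n = 6 each). Its log2 difference was -2.5 in WT, -1.97 in PS19 and -1.40 in PS19_Lsd1het; without PS19_Lsd1het replicate 2 the last was -1.88 and the mean of replicates 1 and 2 was 423.7 ± 34.1 CPM (SD, n = 5). Arc averaged 213.4 ± 138 CPM in replicates 1 and 2 (SD, n = 6), or 249 ± 119 CPM without PS19_Lsd1het replicate 2 (SD, n = 5), and 97.3 ± 67.2 CPM in replicates 3 and 4 (SD, n = 6), with overlap. Homer1 averaged 97.8 ± 43.4 CPM in replicates 1 and 2 and 180 ± 48.65 CPM in replicates 3 and 4 (SD, n = 6 each), also with overlap. Without PS19_Lsd1het replicate 2 its mean in replicates 1 and 2 was 110.6 ± 33.5 CPM (SD, n = 5), and the log2 difference within PS19_Lsd1het was 0.73 in place of 1.37. The median log2 difference over the 36 was -0.519, and -0.647 without PS19_Lsd1het replicate 2, against 0.0304 and 0.0307 over all genes. Members were lower within each of the 3 genotypes in 17 cases and higher in 6, or 27 and 4 without that library; of all genes 34.5% were lower in every genotype and 37.7% higher, or 35.8% and 38.5% without it.

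The size of this difference followed the GC content of the transcript. Over the 36 members, Pearson's r between the GC content of the longest transcript and the log2 difference was -0.871 and Spearman's rho -0.815; over 20906 genes they were -0.717 and -0.763. These are correlations across genes measured in the same 12 libraries, and genes are not independent replicates. Without PS19_Lsd1het replicate 2 the correlations were -0.831 and -0.772 over the members and -0.723 and -0.77 over all genes. The median difference fell from 0.952 in the decile of genes with the lowest GC content to -1.08 in the decile with the highest. The 9 members in that last decile, among them Egr4, Vgf, Junb, Arc and Nptx2, had a median of -1.17, and the 4 in the first decile, Homer1, Tiparp, Pcsk1 and Ptgs2, one of 0.871. Without PS19_Lsd1het replicate 2 these medians were -1.28 and 0.788, against -1.09 and 0.971 over all genes of the same deciles. Members had a median GC content of 54.5%, against 49.2% over all genes.

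With each library's trend over GC content removed, an offset chosen after seeing the data, the median over the members was -0.0495, and -0.297 without PS19_Lsd1het replicate 2. Then 0 members were lower throughout (7.01% of all genes) and 1, Jund, was higher (5.33%); without that library Egr4 and Vgf, 2 members, were lower (8.51%) and Jund, 1 member, was higher (6.58%). Mitochondrial share was high in 2 of the 6 libraries of replicates 3 and 4, and its part in the difference was not tested. The 11-month libraries lay nearer the mean of replicates 3 and 4 than that of replicates 1 and 2 in 284 of 324 pairs of member and library (87.7%). Lsd1het libraries, which carry replicate numbers 1 and 2, did so in 13 of 72 pairs (18.1%). The same count was not made over all genes, so these shares cannot be read as particular to the members. Pairs that share a gene or a library are not independent. Promoter half-sites occurred on both sides of this split: on average and without PS19_Lsd1het replicate 2, Fos, Npas4, Nr4a1 and Junb were lower in replicates 3 and 4, and Pcsk1 and Homer1 were higher.

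**Figure D3:**
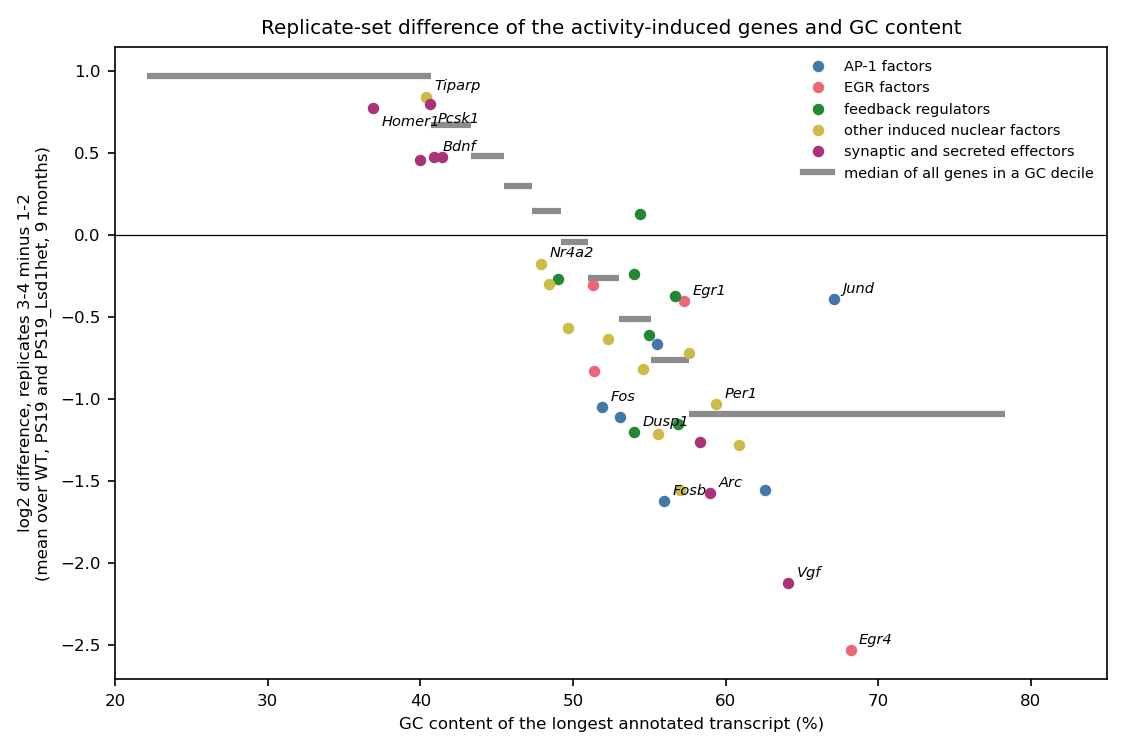
Log2 difference between replicates 3 and 4 and replicates 1 and 2 at 9 months, without PS19_Lsd1het replicate 2, against the GC content of the longest transcript; points are the 36 activity-induced genes coloured by role and grey bars are medians of all genes in each GC decile. Points run down with the bars, from Tiparp at 0.84 to Egr4 at -2.53, and Jund lies above them at -0.39.

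The tau transgene at 9 months was examined by comparing PS19 with WT. Of the core activity genes, Fos averaged 25.9 against 21.0 CPM, Junb 71.8 against 71.8 CPM, Egr1 159 against 158 CPM, Npas4 20.8 against 19.2 CPM and Nr4a1 92.85 against 93.9 CPM in PS19 and WT. The effectors Arc averaged 189 against 167 CPM, Homer1 148 against 171.5 CPM, Bdnf 42.2 against 46.8 CPM, Nptx2 31.55 against 30.35 CPM and Vgf 265 against 259.9 CPM. Of the 36 members, 0 were called by edgeR's quasi-likelihood test at an adjusted p under 0.05, where 0.00497% of 20122 genes were, and 0 by DESeq2 (0.958% of genes). At an unadjusted p under 0.05, 1 member passed by either tool, where 3.91% of genes passed by edgeR. The fitted difference was above 0 for 25 members and below for 11, with a median of 0.118 against -0.0199 over all genes. That balance rested on single libraries: without WT replicate 3, which had the high mitochondrial share, 13 lay above 0 and the median was -0.104, and without PS19 replicate 2 it was 10 and -0.138. Without WT replicate 2, which carried some cerebellar signal, 30 lay above 0 and the median was 0.319. Of neighbouring-region markers, 0 of 6 striatum genes lay above 0 (median -1.39), 3 of 5 thalamus genes (0.17) and 1 of 5 neocortex genes (-0.108). The part of these regions was not tested.

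Maff, a small Maf factor that lacks an activation domain, was the member with the lowest p. It stood at 0.66, 2.03, 0.587 and 0.573 CPM in WT replicates 1 to 4 and at 4.965, 2.76, 0.962 and 3.48 CPM in PS19, which rest on 6 to 48 and 14 to 112 reads. PS19 replicates 1, 2 and 4 lay above all of WT, and PS19 replicate 3 within its range. The log2 difference by edgeR was 1.64 (SE 0.52, 95% interval 0.51 to 2.76, adjusted p = 0.538), so it did not pass. Under the 18 alternatives it ranged from 1.27 to 2.34, with adjusted p from 0.157 to 1. Summed microglia markers (8 genes, 0 of them at 0 in any library) moved with it: they ran from 285.7 to 349.6 CPM in WT and read 1257, 417.5, 369.8 and 1139 CPM in PS19 replicates 1 to 4. Their part in the value was not tested.

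The next lowest p-values by edgeR (adjusted values are given) belonged to Trib1, 0.36 (SE 0.25, 95% interval -0.19 to 0.91, adjusted p = 1), Ier3, 0.36 (SE 0.31, 95% interval -0.30 to 1.02, adjusted p = 1), Inhba, 0.38 (SE 0.38, 95% interval -0.45 to 1.21, adjusted p = 1), and Sik1, 0.28 (SE 0.35, 95% interval -0.48 to 1.04, adjusted p = 1). Among core members the log2 difference was 0.30 (95% interval -0.86 to 1.45) for Fos, 0.18 (95% interval -1.49 to 1.84) for Arc, 0.11 (95% interval -1.16 to 1.38) for Npas4 and 0.054 (95% interval -1.07 to 1.18) for Nptx2. Homer1 gave -0.21 (95% interval -1.17 to 0.74) and Bdnf -0.15 (95% interval -0.92 to 0.62). All these intervals include 0. Within replicates 1 and 2 alone the median over the members was 0.0849, and within replicates 3 and 4 it was 0.112.

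**Figure D4:**
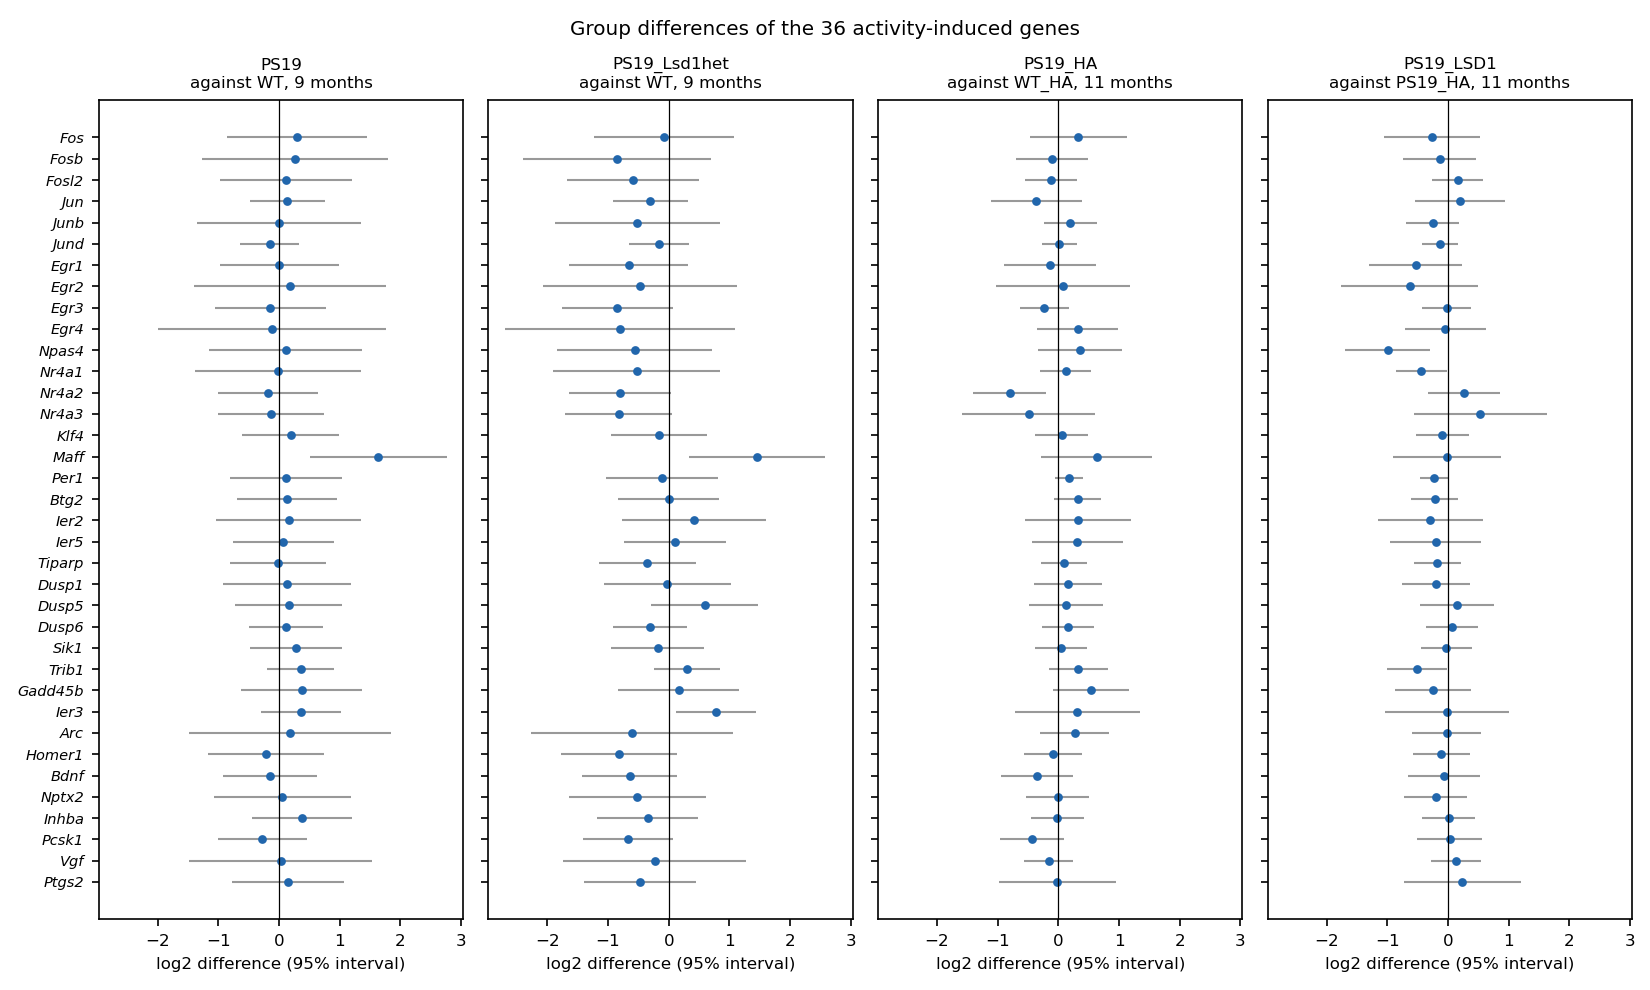
Log2 difference (points) with 95% interval (lines) by edgeR for each of the 36 activity-induced genes in 4 comparisons, 2 at each age; 0 marks no difference. Most intervals include 0; Maff lies at 1.64 and 1.46 in the comparisons at 9 months, and Npas4 at -0.99 in PS19_LSD1 against PS19_HA, and no point passed adjustment over all genes.

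Lsd1 heterozygosity on the tau background was examined by comparing PS19_Lsd1het with WT and with PS19, which share the PS19_Lsd1het libraries. Most members were lower in the fit: 29 of 36 lay below 0 against WT, with a median of -0.349 (0.000899 over all genes), and 32 against PS19, with a median of -0.453 (-0.0176). Of the 36, 0 were called by edgeR in either, where 0.00497% and 0% of 20122 genes were, and 0 by DESeq2 (0.552% and 0.00502%). At an unadjusted p under 0.05, 2 passed against WT by edgeR and 6 by DESeq2, and 0 against PS19 by both tools. By edgeR 6.31% and 1.25% of genes passed. The share of all genes by DESeq2 at that threshold was not counted, so the 6 cannot be read as particular to the members. Without PS19_Lsd1het replicate 2 the medians were -0.205 and -0.288, with 27 and 33 below 0. Then 0 members were called by edgeR in either, where 1 and 0 of 19929 genes were. Without WT replicate 2 the median against WT was -0.16, with 21 below 0.

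The balance was not the same in both replicate sets, a difference that was not tested. Within replicates 1 and 2, which include the library that went against its tissue, 30 members lay below 0 against WT (median -0.443) and 33 against PS19 (-0.581). Within replicates 3 and 4, 16 lay below 0 in both, with medians of 0.22 against WT and 0.0644 against PS19. With that library left out and the replicate set as a covariate, 17 lay below 0 against WT, with a median of 0.0112, and 22 against PS19, with a median of -0.0717. WT replicate 3, with its high mitochondrial share and low values, is 1 of the 2 WT libraries of the second set. PS19_Lsd1het replicate 3, whose Kdm1a read 56.5 CPM, a WT value, is 1 of the 2 PS19_Lsd1het libraries of that set. With it left out and replicate 2 kept, 30 members lay below 0 against WT (median -0.465) and 32 against PS19 (-0.555). With replicate 4 left out in its place, 24 lay below 0 against WT (-0.281) and 27 against PS19 (-0.375). In the fit of all replicates, 6 of 6 striatum markers lay above 0 against PS19 (median 0.866) and 1 of 6 against WT (-0.568). Without PS19_Lsd1het replicate 2 these medians were 0.984 and -0.295, and the part of striatum was not tested.

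Groups did not overlap for Maff and Ier3, 2 members higher in PS19_Lsd1het than in WT (3.46% of all genes were), and for Egr3, 1 member lower (0.909%); against PS19 the counts were 0 and 0 (0.393% and 0.239%). Maff read 3.06, 2.62, 2.14 and 2.94 CPM in PS19_Lsd1het, with a log2 difference from WT of 1.46 (SE 0.52, 95% interval 0.33 to 2.58, adjusted p = 0.687) by edgeR. Ier3 read 3.02, 2.84, 3.03 and 3.15 CPM in WT and 3.86, 6.94, 5.145 and 4.66 CPM in PS19_Lsd1het, the second value from the library that went against its tissue, and differed by 0.77 (SE 0.31, 95% interval 0.11 to 1.43, adjusted p = 0.753) by edgeR. Egr3 read 120.2, 162, 118 and 117 CPM in WT and 102.5, 14.3, 88.6 and 82.6 CPM in PS19_Lsd1het, and differed by -0.85 (SE 0.43, 95% interval -1.77 to 0.073, adjusted p = 0.815) by edgeR. Without replicate 2 the 3 remaining libraries of Egr3 still lay below WT, and the fitted differences were 1.46 for Maff, 0.59 for Ier3 and -0.50 for Egr3. Microglia markers summed to 538.5 to 774.8 CPM in PS19_Lsd1het, above all WT libraries, and their part in the Maff and Ier3 values was not tested.

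Nr4a2 and Nr4a3, receptors of the Nr4a1 family, had edgeR log2 differences from WT of -0.80 (SE 0.39, 95% interval -1.64 to 0.039, adjusted p = 0.798) and -0.83 (SE 0.41, 95% interval -1.71 to 0.058, adjusted p = 0.803). Against PS19 the lowest p-values by edgeR were those of Inhba, -0.73 (SE 0.39, 95% interval -1.56 to 0.11, adjusted p = 1), Nr4a3, -0.69 (SE 0.41, 95% interval -1.57 to 0.19, adjusted p = 1), and Egr3, -0.70 (SE 0.43, 95% interval -1.62 to 0.21, adjusted p = 1). Nr4a2 gave -0.62 (95% interval -1.45 to 0.22) and Fosb -1.11 (95% interval -2.67 to 0.44). The core members Homer1 (-0.82 against WT and -0.61 against PS19), Bdnf (-0.65 and -0.49), Egr1 (-0.66 and -0.66) and Arc (-0.61 and -0.78) were all below 0 in the fit, with intervals that include 0. Fos was -0.077 (95% interval -1.23 to 1.07) against WT and -0.37 (95% interval -1.53 to 0.78) against PS19. Without replicate 2 the differences from WT were -0.54 for Homer1, -0.39 for Bdnf, -0.36 for Egr1, -0.31 for Arc, 0.12 for Fos, -0.49 for Nr4a2 and -0.55 for Nr4a3. Those from PS19 were -0.33 for Homer1, -0.24 for Bdnf, -0.36 for Egr1, -0.49 for Arc, -0.17 for Fos, -0.53 for Inhba, -0.42 for Nr4a3, -0.37 for Egr3, -0.32 for Nr4a2 and -0.83 for Fosb.

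Lsd1 heterozygosity without the transgene was examined by comparing Lsd1het with WT. Against the mean of all 4 WT libraries, several factors and effectors read higher in the 2 Lsd1het libraries: Arc averaged 306 against 167 CPM, Npas4 34.6 against 19.2 CPM, Nr4a1 170 against 93.9 CPM and Fos 33.2 against 21.0 CPM, while Homer1 averaged 113 against 171.5 CPM and Bdnf 38.55 against 46.8 CPM. Those WT means include replicates 3 and 4, and Lsd1het has replicates 1 and 2 alone. Fos read 42.0 and 24.35 CPM in Lsd1het against 25.2 and 34.1 CPM in WT replicates 1 and 2, Nr4a1 205 and 135 against 132 and 150.3 CPM, Npas4 45.1 and 24.1 against 32.3 and 24.1 CPM, and Arc 316 and 297 against 188 and 299 CPM. For these 4 genes Lsd1het replicate 1 lay above both WT libraries and replicate 2 within or below them. Homer1 read 74.8 and 151 against 89.6 and 152.5 CPM and Bdnf 34.0 and 43.1 against 32.6 and 37.1 CPM. The fit against all of WT put 29 members above 0 and 7 below, with a median of 0.454 against -0.0152 over all genes. Of the 36, 0 were called by edgeR (0% of 20122 genes) or DESeq2 (0.00502%), and 0 passed at an unadjusted p under 0.05 by either tool (1.28% of genes by edgeR). Gadd45b, a demethylation factor induced by activity, was the 1 member whose libraries lay above all of WT (4.97% of genes were), at 17.6 and 19.4 CPM against 14.4, 17.1, 3.23 and 8.80 CPM, and 0 members lay below all of WT (5.76%).

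Lsd1het holds replicate numbers 1 and 2 only. Against WT replicates 1 and 2 the median was 0.133, with 30 members above 0. Without WT replicate 3 it was 0.227 and with the GC offset 0.216. The lowest p-values by edgeR were those of Pcsk1, -0.76 (SE 0.43, 95% interval -1.70 to 0.17, adjusted p = 0.805), Ier2, 1.005 (SE 0.65, 95% interval -0.41 to 2.42, adjusted p = 0.805), Jun, 0.49 (SE 0.35, 95% interval -0.26 to 1.24, adjusted p = 0.805), Gadd45b, 0.76 (SE 0.55, 95% interval -0.43 to 1.94, adjusted p = 0.805), and Btg2, 0.62 (SE 0.46, 95% interval -0.37 to 1.61, adjusted p = 0.805). Ier2 read 16 and 5.30 CPM in Lsd1het and 1.86 to 8.48 CPM in WT, so that Lsd1het replicate 1 alone lay above WT, and under the 14 alternatives its difference ran from 0.000348 to 1.59. That of Btg2 ran from -0.14 to 1.12. Pcsk1 read 20.9 and 25.35 CPM in Lsd1het and 23.6, 27.6, 66.6 and 38.5 CPM in WT, where replicates 1 and 2 were the lower values. Vgf (0.64, 95% interval -1.17 to 2.45), Junb (0.73, 95% interval -0.89 to 2.35), Nptx2 (0.61, 95% interval -0.74 to 1.96) and Egr1 (0.35, 95% interval -0.83 to 1.53) were also above 0 in the fit.

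At 11 months the tau transgene was examined by comparing PS19_HA with WT_HA. Fos averaged 9.67 against 7.68 CPM in PS19_HA and WT_HA, Junb 33.5 against 29.2 CPM, Egr1 115 against 126 CPM, Npas4 10.5 against 8.23 CPM and Nr4a1 42.3 against 38.9 CPM. Among effectors Arc averaged 52.2 against 43.1 CPM, Homer1 187 against 198 CPM, Bdnf 37.8 against 48.1 CPM, Nptx2 18.9 against 19.1 CPM and Vgf 129.8 against 145 CPM. Nr4a2 had the lowest p, and stood at 87.1, 98.2 and 50.7 CPM in WT_HA and 52.6, 34.1 and 48.8 CPM in PS19_HA, with WT_HA replicate 3 inside the PS19_HA range. Its log2 difference by edgeR was -0.80 (SE 0.27, 95% interval -1.40 to -0.20, adjusted p = 0.467), so it did not pass. Of the 36 members, 0 were called by edgeR (0.0156% of 19290 genes) or DESeq2 (0.628%), and 1 passed at an unadjusted p under 0.05 by either tool (8.63% of genes by edgeR). The fit put 22 above 0 and 14 below, with a median of 0.0854 against 0.00317. The groups were separate for 0 members in either direction (7.78% of genes were separate and higher and 5.53% lower).

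PS19_HA replicate 3 carried much of that balance: without it 15 members lay above 0 and the median was -0.093. Among the core members, that library was the highest of its group for Egr1, Fos, Homer1, Nr4a1, Nptx2 and Vgf. It was the lowest for Arc, Junb and Bdnf, and Npas4 lay between. Its neocortex markers summed to 455.6 CPM, against 164.7 and 161.4 CPM in the other libraries of its group. In WT_HA they summed to 216.5 to 238.8 CPM. Fezf2 of that list went the other way, at 25.9 CPM in PS19_HA replicate 3 against 26.6 and 29.25 CPM in replicates 1 and 2. Tcf7l2, a factor of thalamic neurons, read 5.24, 14.6 and 64.1 CPM in WT_HA, 7.53, 8.76 and 30.7 in PS19_HA and 6.35, 9.705 and 74.7 in PS19_LSD1, so replicate 3 was the highest of each group. The sum of the 5 thalamus markers was also highest in replicate 3 of each group, but Zic1 of that list was highest in PS19_HA replicate 1, at 72.6 CPM. The part of neighbouring tissue in the values was not tested. Xist, which female cells express, was low in PS19_HA replicate 3, WT_HA replicate 3 and PS19_LSD1 replicate 1, and high in the other 11-month libraries. With Xist-high against Xist-low libraries as a covariate, 21 members lay above 0 in PS19_HA against WT_HA, with a median of 0.0703. After Nr4a2, the lowest p-values by edgeR were those of Gadd45b, 0.54 (SE 0.28, 95% interval -0.093 to 1.17, adjusted p = 0.64), Btg2, 0.32 (SE 0.17, 95% interval -0.07 to 0.70, adjusted p = 0.64), Pcsk1, -0.43 (SE 0.23, 95% interval -0.96 to 0.096, adjusted p = 0.64), and Per1, 0.17 (SE 0.10, 95% interval -0.063 to 0.41, adjusted p = 0.668). Bdnf gave -0.35 (95% interval -0.95 to 0.24), Arc 0.27 (95% interval -0.30 to 0.84), Npas4 0.35 (95% interval -0.33 to 1.04), Egr1 -0.13 (95% interval -0.89 to 0.63) and Homer1 -0.088 (95% interval -0.56 to 0.39).

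The effect of LSD1 expression on the tau background was examined by comparing PS19_LSD1 with PS19_HA. Npas4 had the lowest p, at a mean of 5.29 against 10.5 CPM, with PS19_HA replicate 2 inside the PS19_LSD1 range. Its log2 difference was -0.99 (SE 0.31, 95% interval -1.69 to -0.29, adjusted p = 1) by edgeR, and it ranged from -1.27 to -0.68 under the 14 alternatives, each with adjusted p of 1. Nr4a1 followed at -0.44 (SE 0.19, 95% interval -0.86 to -0.021, adjusted p = 1) by edgeR, then Trib1 at -0.51 (SE 0.22, 95% interval -1.001 to -0.02, adjusted p = 1), Per1 at -0.23 (SE 0.10, 95% interval -0.47 to 0.0032, adjusted p = 1) and Egr1 at -0.53 (SE 0.34, 95% interval -1.30 to 0.23, adjusted p = 1). Of the 36 members, 0 were called by edgeR (0% of 19290 genes) or DESeq2 (0.0156%), and 3 passed at an unadjusted p under 0.05 by either tool (1.81% of genes by edgeR). The fit put 26 members below 0, with a median of -0.103 against -0.00714 over all genes. Without PS19_HA replicate 3, 17 lay below 0, with a median of 0.0208. The groups were separate for 0 members, higher (3.41% of genes) or lower (3.74%).

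Fos (-0.26, 95% interval -1.06 to 0.54), Arc (-0.021, 95% interval -0.59 to 0.55), Junb (-0.25, 95% interval -0.69 to 0.19), Homer1 (-0.11, 95% interval -0.58 to 0.36), Bdnf (-0.063, 95% interval -0.66 to 0.53), Nptx2 (-0.20, 95% interval -0.72 to 0.32) and Vgf (0.13, 95% interval -0.28 to 0.54) did not pass. Summed microglia markers read 391, 390.4 and 425 CPM in PS19_LSD1 replicates 1 to 3 and 331.6, 567.8 and 786.5 CPM in PS19_HA. Kdm1a in the same PS19_LSD1 libraries ran from 1727 to 10810 CPM.

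PS19_LSD1 was also set against WT_HA, a comparison that shares its libraries with the preceding ones. Egr1, Npas4, Nr4a1 and Pcsk1, 4 members, lay lower in all 3 PS19_LSD1 libraries (5.14% of genes did), and Maff, 1 member, lay higher (5.78%). Pcsk1 read 57.6, 54.2 and 66.2 CPM in WT_HA and 47.4, 42.0 and 45.1 CPM in PS19_LSD1. Of the 36 members, 0 were called by edgeR (0.0207% of 19290 genes) or DESeq2 (0.0992%), and 0 passed at an unadjusted p under 0.05 by either tool (4.01% of genes by edgeR). By edgeR the log2 difference was -0.64 (SE 0.31, 95% interval -1.34 to 0.062, adjusted p = 0.864) for Npas4, -0.53 (SE 0.27, 95% interval -1.13 to 0.063, adjusted p = 0.864) for Nr4a2, -0.67 (SE 0.34, 95% interval -1.43 to 0.099, adjusted p = 0.864) for Egr1, -0.41 (SE 0.23, 95% interval -0.94 to 0.12, adjusted p = 0.864) for Pcsk1 and -0.32 (SE 0.19, 95% interval -0.74 to 0.099, adjusted p = 0.864) for Nr4a1. The fit put 21 members below 0, with a median of -0.0349 against 0.00192. Fos (0.068, 95% interval -0.73 to 0.87) and Arc (0.25, 95% interval -0.32 to 0.82) lay above 0.

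Whether the tau difference itself differed between the cohorts was tested over all 23 libraries, where age and virus change together and cannot be told apart. Xist, which female cells express, was high in some libraries at 11 months and in none at 9 months, so sex-linked expression also differed between the cohorts and cannot be told apart from them. Of the 36 members, 0 were called by edgeR (0% of 20931 genes) or DESeq2 (0%), and 0 passed at an unadjusted p under 0.05 (0.569% of genes by edgeR). The fit put 16 members above 0 and 20 below, with a median of -0.041 against 0.023 over all genes; without WT replicate 3 it was 22 above 0 and 0.0676, and without PS19 replicate 2 it was 24 and 0.17. The lowest p-values by edgeR were those of Maff, -1.004 (SE 0.72, 95% interval -2.52 to 0.51, adjusted p = 1), Nr4a2, -0.62 (SE 0.53, 95% interval -1.73 to 0.49, adjusted p = 1), and Jun, -0.49 (SE 0.46, 95% interval -1.46 to 0.47, adjusted p = 1). Inhba gave -0.40 (95% interval -1.44 to 0.65), Jund 0.17 (95% interval -0.44 to 0.78), Fos 0.035 (95% interval -1.50 to 1.57) and Arc 0.098 (95% interval -1.99 to 2.18).

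Genes upstream of the set and further activity-induced genes were read beside it. Of 24 tested genes of upstream signalling, among them NMDA receptor subunits, calcium channels, CREB, SRF and MEF2, 0 were called by either tool in any comparison. At 9 months their fitted differences from WT were below 0 for 23 of 24 genes in PS19 (median -0.141) and in PS19_Lsd1het (median -0.228). Of all genes, 46.5% and 50.1% lay above 0 in these comparisons, with medians of -0.0199 and 0.000899. The upstream counts were not made within replicate sets, nor with any single library left out other than PS19_Lsd1het replicate 2. Neuron markers, 9 genes, lay below 0 for 9 and 8 genes in the same comparisons, with medians of -0.363 and -0.507, and their part was not tested. Without PS19_Lsd1het replicate 2, upstream genes lay below 0 in 21 of 24 cases (median -0.198) and neuron markers in 8 of 9 (median -0.386). Of 38 further activity-induced genes, 1, the stress-responsive factor Atf3, was called higher by DESeq2 in PS19 and in PS19_Lsd1het against WT, and 0 by edgeR. Of all genes, DESeq2 called 0.958% and 0.552% in these comparisons, in either direction.

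Atf3 stood at 0.377, 1.52, 0.489 and 0.573 CPM in WT replicates 1 to 4, 4.74, 3.24, 2.335 and 5.06 CPM in PS19 and 2.82, 3.62, 2.82 and 3.74 CPM in PS19_Lsd1het. Every library of the latter groups lay above every WT library, as 1% of 20122 genes did in PS19 and 3.46% in PS19_Lsd1het. Atf3 in PS19 exceeded WT by 2.34 on the log2 scale (SE 0.46), with an adjusted p of 0.126 by edgeR and 0.000185 by DESeq2. In PS19_Lsd1het it exceeded WT by 2.098 (SE 0.455), with an adjusted p of 0.318 by edgeR and 0.0029 by DESeq2. Without replicate 2 of that group the difference was 2.03. These differences rest on few WT reads. The 0.489 CPM in WT replicate 3 equals the value of Egr2 in that library, which rests on 5 reads. At 11 months Atf3 read 0.79, 0.83 and 0.508 CPM in WT_HA, 0.792, 1.98 and 5.46 CPM in PS19_HA and 1.12, 0.958 and 1.38 CPM in PS19_LSD1, with adjusted p = 0.462 for PS19_HA against WT_HA by edgeR and 0.157 by DESeq2. Of 8 microglia markers, 3 (C1qa, C1qb and C1qc) were called higher in PS19 than in WT by DESeq2, against 0.958% of all genes.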

How the data were processed

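The 23 libraries of poly(A)-selected hippocampal RNA fall into 7 groups by their sample titles. The deposited files hold raw read counts for 54232 genes. Per the submitters' processing notes the authors used FastQC 0.11.7, Trimmomatic 0.36.5, HISAT2 2.1.0, featureCounts 1.6.0.6 and DESeq2 2.11.40.2 with the GRCm38 build; which annotation release and strand setting they used is not given in the sources used here, so reads of a gene and an overlapping antisense gene cannot be told apart. GENCODE annotation on GRCm38 matched 54165 identifiers.

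The members and all lists were chosen with earlier results of these data known. Counts were fitted with edgeR 4.0.16 (TMM, robust quasi-likelihood, filterByExpr with a minimum count of 10 and a minimum total of 15) in R 4.3.3: 14 libraries and 20122 genes at 9 months, 9 and 19290 at 11 months, and all 23 and 20931 for the difference between cohorts. P-values were adjusted by Benjamini-Hochberg over all genes of a fit, with a call at 0.05; DESeq2 1.42.0 was the alternative test. The scripts were tested on simulated data. Named in every group were Fos, Arc, Egr1, Npas4, Nr4a1, Junb, Homer1, Bdnf, Nptx2 and Vgf, and in each comparison the 5 members of lowest p. Of other lists, called genes are named, and Gabra6, Neurod6, Tcf7l2 and Zic1 were picked as illustrations.

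Same-numbered libraries deviated together. The correlation of their deviations from group means ran from 0.5 to 0.82 between PS19 and WT (4 pairs), from 0.31 to 0.54 between PS19_Lsd1het and WT and from 0.3 to 0.48 between PS19_Lsd1het and PS19. At 11 months (3 pairs each) it ran from 0.11 to 0.3 for the control virus, from 0.12 to 0.47 between PS19_LSD1 and WT_HA, and from 0.073 to 0.24 between PS19_LSD1 and PS19_HA, whose lowest pair missed the 0.1 used for pairing. The 2 pairs of Lsd1het and WT gave 0.028 to 0.065. Alternatives covered normalization, filtering, mitochondrial genes, the replicate number as a block, replicate sets, sex-linked expression and single libraries left out. Offsets for GC content (20 bins of the longest transcript) and the fits that join them or the set covariate with leaving out PS19_Lsd1het replicate 2 were chosen after seeing the data.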

Additional observations from a re-analysis of the deposited data

Results flagged for a closer look

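In 6 of the 108 groups of 4 libraries examined (5.56%), 3 for each of the 36 genes, 1 library stood apart from the others by most of the range of its group; chance gives about 1 in 20. Jun, an AP-1 subunit, read 210 CPM in PS19 replicate 2, against 116 to 125 CPM in the other PS19 libraries. Egr2 read 12.4 CPM in that same library, against 3.32 to 4.6 CPM. Egr3 read 162 CPM in WT replicate 2, against 117 to 120 CPM, and Maff read 2.03 CPM in WT replicate 2, against 0.573 to 0.66 CPM. Ier2, an early response gene, read 2.7 CPM in PS19_Lsd1het replicate 4, against 8.15 to 9.08 CPM. Dusp5 read 54.9 CPM in PS19_Lsd1het replicate 2, the library whose markers went against its tissue, against 18.8 to 19.4 CPM.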

How the results depend on the processing

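Under 135 alternatives of the 8 comparisons, 0 of the 36 members were called in each, DESeq2 included. Of 1941 values of named members under these alternatives, 0 passed an adjusted p of 0.05 and 164 changed the sign of the estimate. With the replicate number as a block, which pairs same-numbered libraries, 0 members were called in any comparison, so it changed no call. The count of members higher in all of replicates 3 and 4 than in all of replicates 1 and 2 was 2, and it was 1 with DESeq2 size factors, 1 without mitochondrial genes, 1 with GC offsets and 1 with GC offsets and without PS19_Lsd1het replicate 2. The count of lower members was 4, and it was 0 with GC offsets and 2 with GC offsets and without that library. Leaving out 1 library at a time gave 2 to 3 higher and 4 to 13 lower members; the highest value, 13, came without PS19_Lsd1het replicate 2. Causes of these changes were not tested. Low counts limit Egr2 and Maff, which rested on as few as 5 and 6 reads in a library. They also limit Atf3, which is not a member, in WT.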

Other observations

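Genes that glucocorticoids are known to induce were a further list. All 14 lay above 0 in PS19 against WT, with a median of 0.422, where 46.5% of all genes did, and 10 of 14 in PS19_HA against WT_HA, with a median of 0.309, where 50.5% of all genes did. Plin4, a lipid droplet protein, was the 1 gene called, by DESeq2 in PS19 (log2 difference 2.69, SE 0.73; DESeq2 gave an adjusted p of 0.0122 and edgeR one of 0.317), and 0 were called by edgeR. It read 54.4, 5.525, 6.11 and 14.5 CPM in PS19 replicates 1 to 4 and 2.215, 5.12, 1.86 and 3.19 CPM in WT. Of all genes, DESeq2 called 0.958% in PS19 against WT. The summed list ran from 454 to 623.6 CPM in WT and read 951.1, 619, 595.5 and 700 CPM in PS19 replicates 1 to 4, so the groups overlapped. Microglia markers ranked the PS19 libraries in the order of the list, at 1257, 417.5, 369.8 and 1139 CPM in replicates 1 to 4. In WT they summed to 285.7 to 349.6 CPM, with the lowest sum in replicate 3, where the list was highest. Astrocyte markers did not rank the PS19 libraries in that order, at 7688, 4108, 6659 and 10190 CPM, against 3802 to 5870 CPM in WT. The part of glial markers in the list's values was not tested.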
